A study of Drosophila melanogaster with 5 samples.

Results

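The genes nej, G9a, Smr and crm lie on the Drosophila X chromosome and encode regulators of chromatin, and each holds at least 1 peak of MSL2. The 4 genes were chosen by the peaks they hold in the deposited list, so the number, position and order of these peaks are given here as a description, without a test. Peaks were counted for a gene when their midpoint lay inside it or within 1 kb of it. This gave 12 of the 709 peaks, in 4 of the 2705 genes on X. The binding data come from CUT&RUN in S2 cells, an established male-like cell line of Drosophila melanogaster; in CUT&RUN a nuclease tethered to an antibody releases the DNA around the antibody's target. There were 3 libraries with rabbit serum against MSL2 and 2 control libraries, whose target is labelled PPI. The protocol names pre-immune serum as the other serum used. Neither group carried a further treatment or genotype in the labels.

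MSL2 is the male-specific subunit of the dosage compensation complex. The complex assembles on X at high-affinity sites that are rich in GA repeats, spreads from there to active genes, and acetylates histone H4 (H4K16) through its subunit MOF. The 4 genes act on chromatin in other ways. The product of nej is the fly homologue of the acetyltransferases CBP and p300, which acetylate histone H3 at enhancers. G9a encodes a methyltransferase of histone H3 (H3K9), a modification of silent chromatin. The product of Smr, also called SMRTER, is a corepressor that brings histone deacetylase activity to nuclear receptors such as the ecdysone receptor. The gene crm, or cramped, is classed with the Polycomb group, which keeps developmental genes silent.

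The deposited list holds 1 row per peak, with a position, a name and a constant score of 1, and no values for single libraries. No mean, SD or depth per library can therefore be attached to a peak. The authors' header gives 7890306 tags for the anti-MSL2 set and a minimum of 25 tags per peak. Every listed peak exceeded the control 10-fold and its surrounding 10000 bp 4-fold. Of 9758 putative peaks, 8575 were filtered by the control and 474 by local signal. A gene or stretch without a listed peak is therefore not shown to lack MSL2 signal. Each peak is 151 bp wide. Coordinates are those of the file, on dm6, and gene extents are those of the RefSeq table of Release 6, the same assembly. The table has no strand, so each gene is described from its lower-coordinate to its upper-coordinate end.

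The 12 peaks were unevenly divided among the genes. There were 6 in nej, 4 in G9a, 1 in Smr and 1 in crm. All 12 midpoints lay inside the gene, and the flanks of 1 kb added 0. The nearest peak left out by the 1 kb limit lay 1543 bp beyond Smr; the nearest ones to nej, crm and G9a lay 6420, 6537 and 216276 bp away. As background, 34.4% of the 2197 protein-coding genes on X had at least 1 peak by the same rule, and 0.683% had at least 4, among them nej and G9a. Having peaks was what chose the 4 genes, so nothing is read from their place in these shares. Of all 2705 genes on X, 1 had more peaks than nej and 7 had more than G9a.

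**Figure D1:**
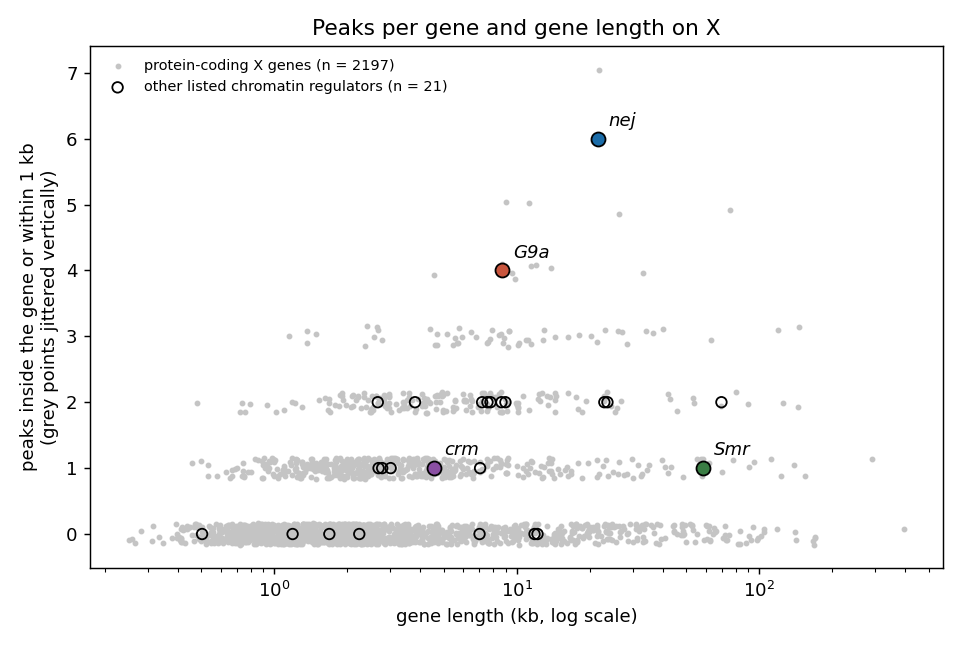
Number of MSL2 peaks inside a gene or within 1 kb of it (y axis) against gene length in kb on a log scale (x axis). Grey points are the 2197 protein-coding genes on X, open circles are 21 other chromatin regulators, and coloured points are the 4 genes; nej has 6 peaks in 21.6 kb, and Smr has 1 in 58.4 kb.

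Among the 4, which were chosen by their peaks, the longest gene did not have the most peaks. This says nothing of other genes: 34.4% of all protein-coding genes on X had a peak, and 43.7% of those over 5 kb did. Smr, the longest at 58.4 kb and longer than 97.4% of the protein-coding genes on X, had 0.0171 peaks per kb. The other gene with 1 peak, crm, is 4.53 kb long and had 0.221 peaks per kb. The 21.6 kb of nej had 0.277 peaks per kb. G9a, at 8.67 kb, was the densest with 0.461 peaks per kb, and its 4 peaks covered 6.47% of the gene.

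The gene nej (gene 43856, X 9665442 to 9687066, 4 RefSeq transcripts) carried its peaks towards both ends. In the lower part there were peaks at chrX:9666568-9666718, chrX:9667683-9667833 and chrX:9672345-9672495, with midpoints 1201, 2316 and 6978 bp from the lower end. In the upper part there were peaks at chrX:9685059-9685209, chrX:9685724-9685874 and chrX:9686741-9686891, with midpoints 1932, 1267 and 250 bp from the upper end. The 3 upper peaks thus fell in the last 1932 bp of the gene, and between both groups lay 12563 bp without a peak, 58.1% of the gene. Within the upper group the midpoints were 665 and 1017 bp apart, and within the lower group 1115 and 4662 bp.

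The peaks of nej were also spread over the order of the list. The peak nearest the upper end came earliest, at place 22, and the peak at 6978 bp from the lower end came latest, at place 532. The other 4 were at places 83, 125, 218 and 320. In both groups the outermost peak stood earliest in the list: place 22 in the upper group and place 125 in the lower one. Of the 6, 5 were among the first 354 peaks.

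The gene G9a (gene 30971, X 245978 to 254650, 2 RefSeq transcripts) was likewise marked near both ends. Its peaks lay at chrX:245935-246085, chrX:247560-247710, chrX:253346-253496 and chrX:253788-253938. The first had its midpoint 32 bp inside the lower end and began 43 bp outside the gene. Its midpoint was also 154 bp from CG3038, a neighbour that ends 122 bp below G9a, so this peak cannot be given to either gene alone. The second lay 1657 bp from the lower end, and the others lay 1229 and 787 bp from the upper end. The pair at the upper end had midpoints 442 bp apart, against a minimum distance of 300 bp set in the peak calling. Between the second and the third peak lay 5635 bp without a peak, 65.0% of the gene.

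G9a differed from the other 3 genes in list order. Its peaks were at places 553, 689, 690 and 698 of 709, and none (0) was in the first 354. Late places were not particular to G9a on this part of X. The next peaks above it, from position 470851 to 516193, were at places 430, 380, 674, 701, 696 and 699. The peaks of Smr and crm were at places 6 and 5. Both nej and G9a had several peaks, but their places did not overlap: the latest peak of nej, at 532, preceded the earliest of G9a, at 553. That peak of nej was also outside the first 354 places, which hold 354 of the 709 peaks by definition. Both genes were chosen from this list, so nothing further is read from the separation.

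**Figure D2:**
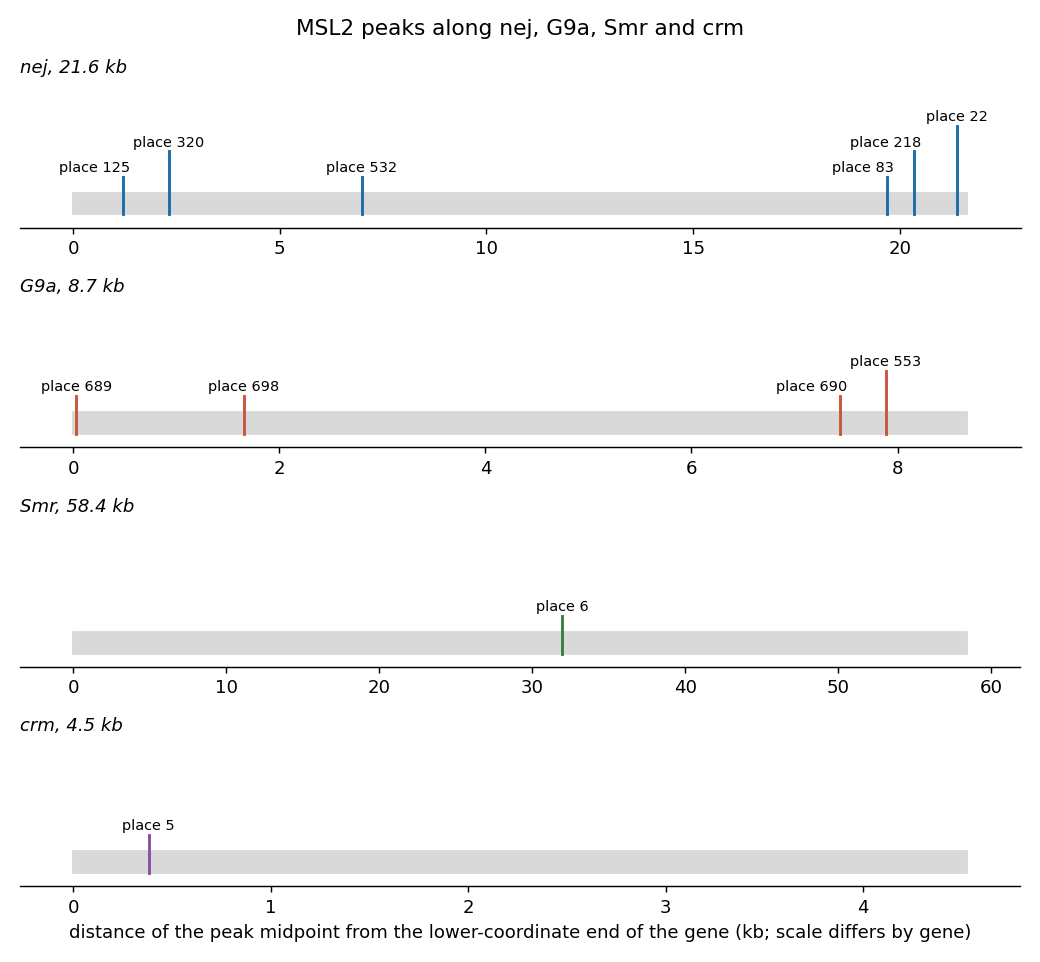
Peak midpoints along each gene, as distance in kb from its lower-coordinate end; grey bars are gene extents, vertical lines are peaks labelled by place in the list, and each gene has its own scale. In nej and G9a the peaks stand towards both ends, with 12563 and 5635 bp free of peaks between them.

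Smr (gene 32225, X 12684203 to 12742618, 4 RefSeq transcripts) had its peak at chrX:12716088-12716238, near the middle of the gene. The midpoint was 31960 bp from the lower end and 26455 bp from the upper end, farther from the ends of its own gene than any other of the 12. The table places 3 other genes across the extent of Smr: CG15725, lncRNA:CR43963 and asRNA:CR45623. None of these (0 of 3) held a midpoint. The peak stood alone within the gene, with its nearest neighbour 27998 bp away. Within 50 kb of either side of Smr there were 10 further peaks. These included 3 in Tomosyn, 2 in CkIalpha and the first peak of the whole list, in Paics, 17958 bp above Smr.

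The gene crm (gene 31268, X 2734248 to 2738773, 2 RefSeq transcripts) had its peak at chrX:2734556-2734706, 383 bp from the lower end. At that end crm overlaps CG2712, whose extent ended 229 bp from the midpoint. There were 5 further peaks within 50 kb, all on the lower side, the nearest in dwg. On the upper side the next peak was 753783 bp away, at place 472. This was the 2nd longest of the 708 distances between adjacent peaks on X, and 46 protein-coding genes lay wholly within it.

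Long distances without a peak also bordered nej and G9a. Above nej the next peak was 189799 bp away, the 28th longest distance, while below nej it was 7621 bp away. Above G9a the next peak was 217063 bp away, the 18th longest, and the 4 peaks of G9a were the lowest on X, with 0 peaks below them. Over all of X the median distance between adjacent midpoints was 7477 bp, with quartiles of 2945 and 25852 bp. So nej and crm each had a distance close to that median on the lower side, 7621 and 6920 bp, and a long distance on the upper side. Smr had 41880 and 27998 bp on its sides, both above the upper quartile.

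**Figure D3:**
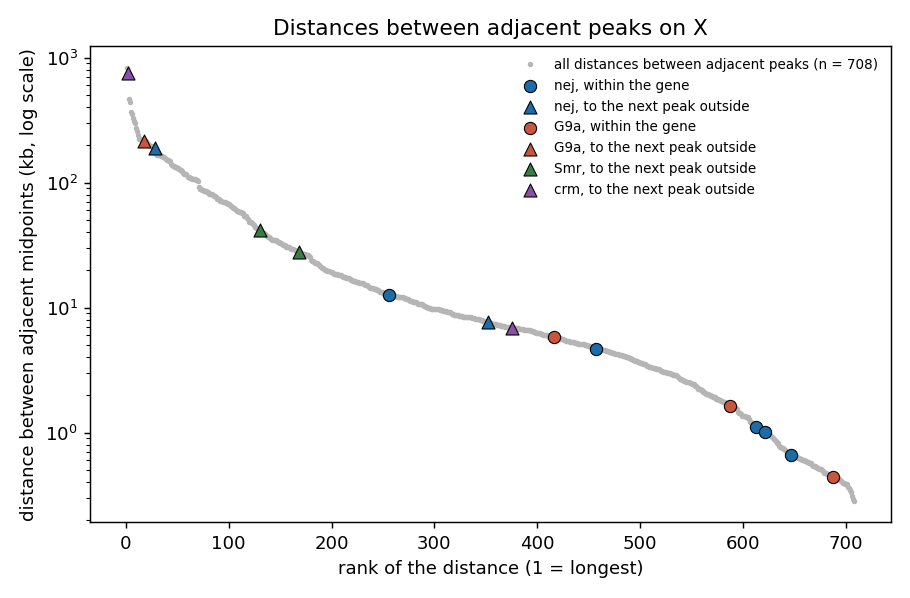
The 708 distances between adjacent peak midpoints on X (y axis, kb, log scale) in order of length (x axis, 1 = longest). Circles mark distances within nej and G9a and triangles mark distances from the outermost peaks of the 4 genes to the next peak; the distance above crm is 2nd at 754 kb, and the shortest within a gene is 442 bp in G9a.

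Set beside the rest of the list, the 12 peaks had a shorter median distance to another peak and a longer one to a gene end. The nearest peak was at a median of 1115 bp, and that of the other 697 peaks was 3387 bp. This contrast follows in part from the choice of genes, since nej and G9a hold several peaks. Of the 12, 3 lay within 500 bp of a gene end, 1 each in nej, G9a and crm, a share of 25.0% (95% Wilson interval 8.89% to 53.2%). Of the other peaks, 398 of 697 did, a share of 57.1% (53.4% to 60.7%). The nearest end of any gene was at a median of 1248 bp from the 12 midpoints and 362 bp from the others. The genes were chosen by the peaks they hold, and all 12 peaks lay inside them, whereas 76.3% of the other 697 lay inside any gene. Nothing is therefore read from the contrast in distance to gene ends. Peaks in 1 gene share their source, so the intervals, which cover counting error, are too narrow, and the difference was not tested.

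The order of the list was nearly that of the numbers in the peak names. Over the 709 peaks the numbers ran from 19 to 3598, with 2889 numbers in that range or below it not in the list. The peaks of crm and Smr carried numbers 30 and 32. Those of nej ran from 69 to 886, with a median of 238.5. Those of G9a were 916, 2101, 2218 and 2726. Of the 66 pairs among the 12 peaks, 1 was in opposite order by place and by number: the G9a peaks with numbers 2218 and 2101, at places 689 and 690. Of the 12 peaks, 7 were in the first 354, a share of 58.3%, and those places hold 354 of all 709 peaks by definition. The genes were chosen from this same list, and peaks in 1 gene share their source. The 95% Wilson interval of 32.0% to 80.7% is therefore too narrow, and the share was not tested. What the order or the numbers stand for is not given in the header, so an early place is not read as a stronger peak.

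**Figure D4:**
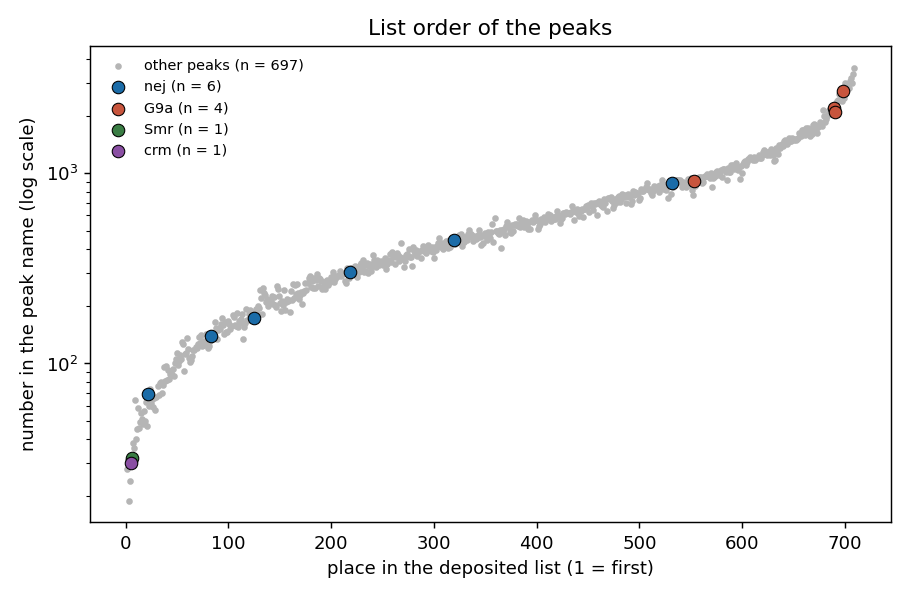
Number in the peak name (y axis, log scale) against place in the deposited list (x axis) for all 709 peaks; coloured points are the 12 peaks of the 4 genes. The crm and Smr peaks stand at places 5 and 6, the nej peaks between 22 and 532, and the G9a peaks between 553 and 698.

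To place the 4 genes among others of their kind, 25 genes on X with known roles in chromatin were examined, the 4 included. Of these, 18 had a peak inside or within 1 kb. Without the 4 it was 14 of 21 (66.7%), beside 34.4% of all protein-coding genes on X. Listed genes are longer, with a median of 7051 bp for the 21 against 2520 bp, and among protein-coding genes over 5 kb the share was 43.7%. With midpoints inside the gene alone, it was 7 of 21 (33.3%) beside 17.8%. When each peak was given to its nearest gene only, 10 of the 21 had one, beside 23.0% of all protein-coding genes on X. For these last 2 rules the share among genes over 5 kb was not computed, so the difference in length was not accounted for. None of the 21 had more than 2 peaks; 10 had 2 and 4 had 1. The median was 1 peak per gene in the list and 0 over all protein-coding genes. The list was chosen by function with earlier results known and does not hold every chromatin regulator on X, and no enrichment is claimed.

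Among the listed acetyltransferases, nej was the gene with peaks inside it. Distances to genes here and below are those of peak midpoints. For mof, which encodes the acetyltransferase of the MSL complex itself, the 1 peak was 442 bp outside, and closer to GAA1. For Tip60, the acetyltransferase of another chromatin complex, it was 143 bp outside and within tyf. The listed deacetylase and corepressor genes all had a peak, with 2 inside HDAC4 and 1 inside HDAC6. CoRest had 2 with midpoints 45 and 712 bp outside it. The first of these peaks overlapped CoRest, and the second lay within Idh3a. The peak of Smr, a gene chosen by its peak in this list, was at place 6. Places of the other peaks in this group ranged from 284 to 603.

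Of the 4 listed histone methylation genes, G9a alone had a peak inside. Hmt4-20, a histone methyltransferase gene outside the list, had 3 peaks, all inside its 7551 bp. Set2 encodes the H3K36 methyltransferase, whose modification marks active genes. It had a peak midpoint beyond each end, 69 and 238 bp away, at places 321 and 33. The peak at place 321 reached into the gene. The 2 peaks counted for trr, which encodes an H3K4 methyltransferase, lay 249 and 725 bp outside it and within Coa8. The gene wds, which encodes a subunit of such complexes, had no peak (0), the nearest midpoint being 11154 bp away. In the Polycomb group, ph-d had 1 peak inside and 1 at 236 bp, whereas its tandem copy ph-p had none (0). Reads from such near-identical copies may not be placed with certainty, and how the authors treated them is not given in the sources used here.

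Of the remaining genes, fs(1)h, which encodes the fly BET bromodomain protein, had 2 peaks inside, at places 19 and 424. The gene of the histone chaperone Hira had 2 inside. Spt6 and Tlk each had 2, with 1 of those of Tlk inside. The midpoints of those of Spt6 were 14 and 504 bp outside it, and the nearer peak overlapped the gene. The gene of zeste, z, had 1, which also lay inside boi. Bap111, listed as dalao and a subunit of the Brahma remodelling complex, had 2 within 1 kb, both closer to other genes. No peak (0) was listed for HP1b, Taf9 (listed as e(y)1), e(y)2, e(y)3 or Dsp1. The 24 peaks of the 21 genes had places from 19 to 631. The 4 genes were chosen by their peaks in this same list, so nothing is read from places of theirs outside that range.

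Genes like each of the 4 were taken as the protein-coding genes on X with the same number of peaks and the smallest difference in log2 length, over this 1 list. For nej the one other gene with 6 peaks was rudhira, differing in log2 length by 0.07; its peaks were at places 26 to 345. For G9a, among 7 other protein-coding genes with 4 peaks, the nearest were schlank (log2 length difference 0.14), Trf4-1 (0.18) and Vav (0.40). Their peaks were at places 106 to 495, 60 to 298 and 117 to 502. Of the 4 peaks of each, 2 lay inside schlank, 4 inside Trf4-1 and 3 inside Vav, beside 4 inside G9a. Late places were also found among the other 4 of the 7, named after their values were seen: su(w[a]), with peaks at places 409 to 683 and 0 in the first 354, and Rip11, at 90 to 634, overlapped the 553 to 698 of G9a. The median place was 689.5 in G9a, 643 in su(w[a]) and 542 in Rip11. For Smr, among 493 other protein-coding genes with 1 peak, Dop2R, Bx and Ptp10D were nearest in length, within 0.08, with peaks at places 104, 488 and 665. For crm, Act5C, CG1628 and GstT4 were nearest, within 0.02, with peaks at places 342, 269 and 635. The peak of CG1628 lay inside the gene, like that of crm, but Act5C and GstT4 had 0 inside.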

How the data were processed

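CUT&RUN libraries from S2 cells (3 anti-MSL2, 2 control) were represented by 1 deposited peak list. Peak calling by the authors used HOMER findPeaks in factor style, per the file headers, on 1 anti-MSL2 tag directory against 1 control directory; whether libraries were pooled is not stated. Bowtie2 2.2.9, SAMtools 1.9, HOMER 4.9 and dm6 are named in the submitters' processing notes. The deposited score is 1 for every peak and was not used. The authors' settings favour narrow sites, since each peak had to exceed the surrounding 10000 bp 4-fold, which works against close peaks.

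Midpoints were assigned to RefSeq genes (Release 6, matched by symbol; 3 of 25 listed chromatin genes by synonym) inside or within 1000 bp, with python 3.11.15, pandas 2.3.3 and scipy 1.17.1. Overlapping genes each received a peak. Counting was tested on simulated peaks in genes lying apart from any other gene, so peaks shared by neighbouring or overlapping genes were not covered. The members and lists were chosen with earlier results of these data known. Named genes were the 4 genes, the listed genes, neighbours sharing a peak, and for each of the 4 up to 3 genes with the same number of peaks and the closest log2 length; other genes beside these peaks were chosen for naming after seeing the values. No test was run. Genome sequence was not used here, so no GA repeats were searched.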

Additional observations from a re-analysis of the deposited data

How the results depend on the processing

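Of 49 alternative values for 9 results, 40 stayed within 1.5 times the reported value and 9 did not. Some of the 40 could not change. Merging could not alter the 1 peak of Smr or of crm, and leaving out the flank could not alter genes with all midpoints inside. The 5 peaks in the first 177 places counted as unmoved beside 7 in the first 354, which are unlike quantities. The tally is therefore not a measure of stability. Merging peaks within 5 kb left 6 regions in the 4 genes, 2 in nej and 2 in G9a, because neighbouring peaks then count as 1. Taking the first 354 peaks by place, or the same number by the lowest peak names, left 7 peaks in the 4 genes and 0 in G9a. A flank of 2 kb gave Smr 2 peaks. With no flank, 11 in place of 18 listed chromatin regulators had a peak. The 3 alternatives that left out the 4 genes, gave each peak to its nearest gene or left out nej were chosen after seeing the data. No paired analysis was possible because no library has values of its own in the list, and leaving out a replicate was not run for the same reason. The search for GA repeats was not run, as genome sequence was not used here. Without values per library, how far any peak varies between libraries cannot be stated.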

Other observations

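The numbers in the peak names were listed to very different degrees, and the peaks of the 4 genes fell in bands that were chosen after seeing the data. Of the numbers 1 to 100, 50 were in the list, among them those of crm, Smr and 1 peak of nej. Of the numbers 101 to 500, 315 were listed (78.8%), with 4 peaks of nej. Of those from 501 to 1000, 212 were listed (42.4%), with 1 peak of nej and 1 of G9a. Of those from 1001 to 2000, 104 were listed (10.4%), with 0 of the 12 peaks. Above 2000, 28 of 1598 numbers were listed (1.75%), and 3 of these 28 peaks were in G9a. The header gives 8575 putative peaks filtered by the control and 474 by local signal. Whether the missing numbers were those of filtered peaks was not analysed here.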
